A study of Mus musculus with 5 samples.

Results

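The genes described here encode the surface receptors through which haematopoietic growth factors act on blood progenitors and myeloid cells, with the receptor tyrosine kinase Flt3 among them. Of the 8 receptor genes named for this purpose (Csf3r, Csf2ra, Csf2rb, Csf2rb2, Il3ra, Csf1r, Flt3 and Kit), 6 had a probe set annotated with that gene alone, out of 14807 genes with such a probe set in the whole series. Csf2ra had none, and Csf2rb2 shared its one probe set with its close paralog Csf2rb, so neither has a value of its own. The genes were chosen by name, and a probe set was to be selected on the highest mean over the 5 arrays where a gene had several. Each of the 6 had exactly 1, so that mean made no choice. All 6 were kept without any filter on low values. The genes were picked with earlier results of these data known, and Flt3 in particular with its difference known, so the differences below are descriptions of these arrays.

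RNA was measured in CD11b+Gr1+ myeloid cells sorted from mouse lung, about 100000 cells for each sample. The tumour-challenged group (2 arrays) held wild-type mice 9 days after 5000000 LLC-RFP cells, a Lewis lung carcinoma line carrying a red fluorescent protein, had been placed under the skin. The control group (3 arrays) held wild-type mice given no tumour. The labels do not say how many animals made up a sample, nor the age or strain of the mice, so p-values measure only the spread between these samples, which may be technical.

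Growth factor receptors of blood cells fall into 2 structural families. The cytokine receptors lack an enzyme domain and signal through bound JAK kinases and STAT proteins. Csf3r, the receptor of granulocyte colony-stimulating factor (G-CSF), pairs with itself. Csf2ra and Il3ra are the ligand-binding alpha chains for granulocyte-macrophage colony-stimulating factor (GM-CSF) and interleukin 3. Both can pair with the common beta chain encoded by Csf2rb, which the interleukin 5 receptor uses too. Mice have a second, neighbouring beta chain gene, Csf2rb2, whose product serves interleukin 3 alone. The class III receptor tyrosine kinases Csf1r, Flt3 and Kit carry their own kinase domain. They bind, respectively, colony-stimulating factor 1 and the product of Il34, Flt3 ligand, and stem cell factor. Csf3r is carried by neutrophils and their precursors, Csf1r by monocytes and macrophages, Flt3 by early progenitors and dendritic cells, and Kit by progenitors and mast cells.

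Values are log2 RMA expression values, 1 per probe set and array. RMA is a method that subtracts background, quantile-normalizes and summarises the probes of a set. A background level of 6.89 was set as the 95th percentile of the means of 832 probe sets of chemosensory receptors. These genes were assumed to be mostly silent in lung myeloid cells, which was not tested. The arrays nevertheless differed in their upper quartile, which was lowest in control replicate 3 (7.90) and highest in tumour-challenged replicate 1 (8.23). The deposited values were thus not alike in distribution between arrays, and the source of this was not tested. Itgam, which encodes CD11b, lay between 10.60 and 11.11 on all 5 arrays. Ly6g, one of the genes of the Gr1 epitope, had no probe set of its own, and a probe set that Ly6c1 and Ly6c2 share with a further gene lay between 6.55 and 6.68, under the background level on all 5 arrays. The neutrophil gene Cxcr2 lay between 11.60 and 11.93. Over all 16661 probe sets the limma test (linear model with moderated variances, Benjamini-Hochberg adjustment) called 0 at an adjusted p under 0.05, with 1090 at an unadjusted p under 0.05, and the median difference was 0.02.

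Flt3 (probe set 6943142) had the widest spread of the 6 receptors. Its log2 values were 9.51 and 7.99 in tumour-challenged replicates 1 and 2, and 7.53, 7.65 and 7.25 in control replicates 1, 2 and 3. Both tumour-challenged arrays were above all control arrays, but they did not lie together: replicate 1 was 1.51 above replicate 2, whereas replicate 2 was 0.35 above the highest control array. The 3 control arrays spanned 0.39, and all 5 values lay above the background level. In bulk RNA of sorted cells, more cells that carry a transcript and more transcript per cell cannot be told apart.

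The Flt3 group means were 8.75 ± 1.07 (SD, n = 2) after tumour challenge and 7.48 ± 0.20 (SD, n = 3) in controls, a log2 difference of 1.27 ± 0.49 (SE), or 2.42-fold. The 95% interval of this difference ran from -0.03 to 2.58, and limma gave an adjusted p of 0.759 over all probe sets. Flt3 thus did not pass the test. It ranked as the 7th largest positive difference among all 16661 probe sets, and 18 probe sets had a wider range over the 5 arrays. The size of the difference rested on tumour-challenged replicate 1: without that array it was 0.52, under 2-fold, and without tumour-challenged replicate 2 it was 2.03. Leaving out any 1 control array left it between 1.16 and 1.36.

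**Figure D1:**
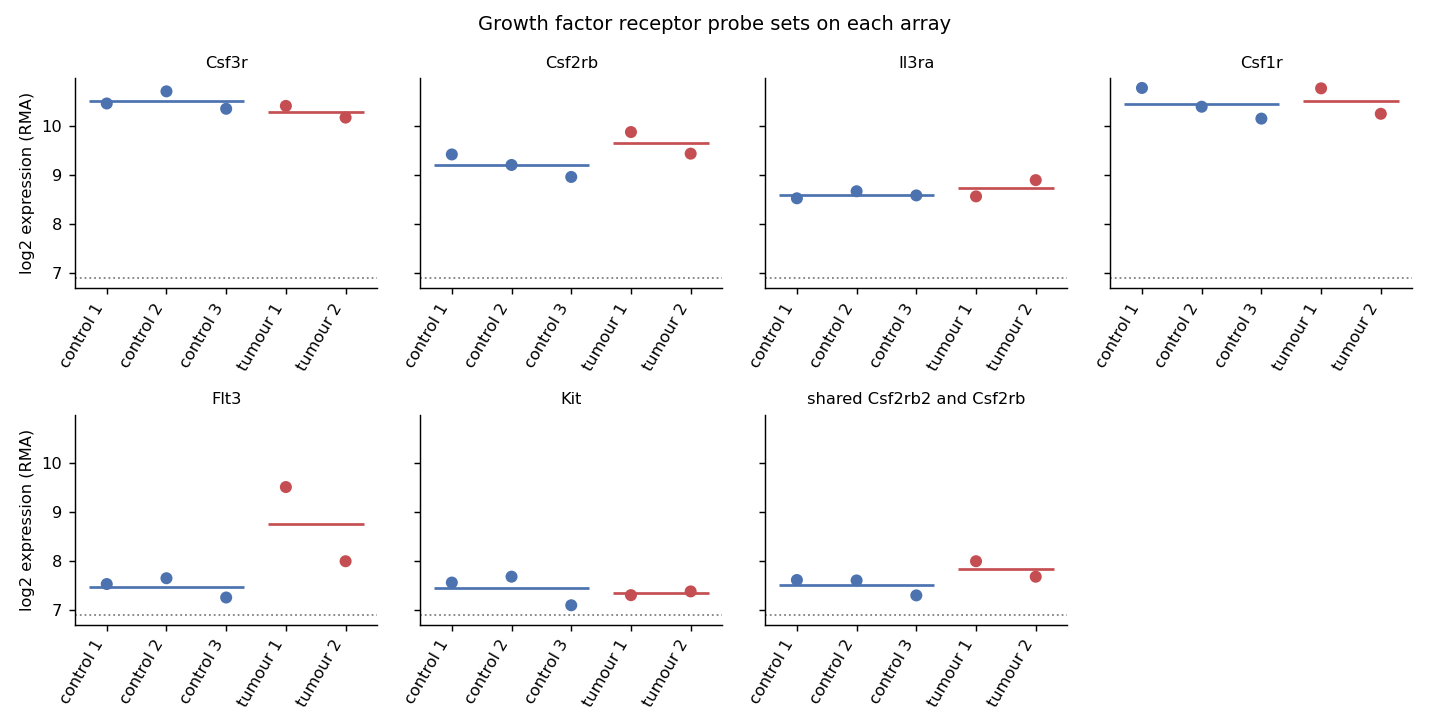
Log2 RMA expression (vertical axis) of the 6 receptor probe sets and of the probe set shared by Csf2rb2 and Csf2rb on each of the 5 arrays (horizontal axis). Blue points are control and red points tumour-challenged arrays, horizontal lines are group means, and the dotted line is the background level of 6.89. Flt3 stands at 9.51 in tumour-challenged replicate 1 and at 7.99 in replicate 2, while Csf3r, Csf1r, Il3ra and Kit overlap between groups.

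Kit, the stem cell factor receptor and the other progenitor kinase of this family, did not share the Flt3 pattern. Its values (probe set 6931759) were 7.30 and 7.38 after tumour challenge and 7.56, 7.68 and 7.10 in controls. The tumour-challenged values lay inside the range of the controls, and all 5 were within 0.78 of the background level. The group means were 7.34 ± 0.05 (SD, n = 2) and 7.44 ± 0.31 (SD, n = 3), with a log2 difference of -0.10 ± 0.20 (SE), a 95% interval of -0.64 to 0.43 and a limma adjusted p of 0.934. Without control replicate 2 the difference was 0.01.

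Csf1r, the macrophage colony-stimulating factor receptor of monocytes and macrophages (probe set 6861358), read 10.77 and 10.25 after tumour challenge and 10.78, 10.39 and 10.15 in controls. The highest tumour-challenged and the highest control array were nearly level, and the groups overlapped fully. The group means were 10.51 ± 0.37 (SD, n = 2) and 10.44 ± 0.32 (SD, n = 3), and the log2 difference was 0.07 ± 0.26 (SE), with a 95% interval of -0.62 to 0.76 and a limma adjusted p of 0.971. Its sign turned to -0.19 without tumour-challenged replicate 1 and to -0.08 without control replicate 3. The intervals of Csf1r and Kit leave out a 2-fold difference in either direction.

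Among the cytokine receptors, the common beta chain gene Csf2rb had the most positive difference. Csf2rb (probe set 6831800) read 9.88 and 9.44 in the tumour-challenged samples and 9.42, 9.21 and 8.96 in the controls. The groups did not overlap, by a margin of 0.02 between tumour-challenged replicate 2 and control replicate 1. The group means were 9.66 ± 0.31 (SD, n = 2) and 9.20 ± 0.23 (SD, n = 3), a log2 difference of 0.46 ± 0.20 (SE), or 1.38-fold, with a 95% interval of -0.08 to 1.01 and a limma adjusted p of 0.799. Without tumour-challenged replicate 1 the difference was 0.24.

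The probe set shared by Csf2rb2 and Csf2rb (6837008), which the annotation does not assign to either gene, followed the same order of arrays. It read 7.99 and 7.68 after tumour challenge and 7.61, 7.60 and 7.30 in controls, again without overlap. Its log2 difference was 0.33 ± 0.16 (SE), with a limma adjusted p of 0.800. Because the beta chain genes are close paralogs, signal from one may reach the probes of the other, which was not tested. The shared probe set therefore adds no separate reading of Csf2rb2.

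Il3ra, the alpha chain of the interleukin 3 receptor, was the one receptor with its highest value in tumour-challenged replicate 2. Its values (probe set 6817060) were 8.57 and 8.90 after tumour challenge and 8.53, 8.67 and 8.59 in controls, so that replicate 1 lay within the control range. The group means were 8.73 ± 0.23 (SD, n = 2) and 8.60 ± 0.07 (SD, n = 3). The log2 difference was 0.14 ± 0.12 (SE), with a 95% interval of -0.19 to 0.46 and a limma adjusted p of 0.864. Without tumour-challenged replicate 2 it was -0.03.

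Csf3r, the G-CSF receptor of the neutrophil lineage, had the most negative difference of the 6. Its values (probe set 6917120) were 10.41 and 10.17 after tumour challenge and 10.46, 10.71 and 10.35 in controls, with 1 tumour-challenged array under all controls and the other within their range. The group means were 10.29 ± 0.17 (SD, n = 2) and 10.51 ± 0.18 (SD, n = 3). The log2 difference was -0.22 ± 0.14 (SE), with a 95% interval of -0.60 to 0.17 and a limma adjusted p of 0.842. It stayed negative whichever array was left out, between -0.33 and -0.10. The intervals of Csf3r and Il3ra also leave out a 2-fold difference in either direction. Neutrophil markers differed in sign among themselves, with 7 positive and 4 negative of 11 measured. Il1r2, a decoy receptor of interleukin 1, read 11.72 and 11.55 against 11.84 to 11.98. The granule gene Mmp8, neutrophil collagenase, read 11.83 and 11.06 against 10.20 to 10.53.

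Over the 6 receptors, 4 differences were positive and 2 negative, where 57.3% of all probe sets were positive. Their median was 0.10 against 0.02 over all probe sets. The limma test called 0 of the 6 at an adjusted p under 0.05, as it did 0.0% of all probe sets, and 0 of the 6 had an unadjusted p under 0.05, against 6.54% of all probe sets. That count depended on the setting: it was 2 (Flt3 and Csf2rb) after quantile normalization or median centring of the arrays. The adjusted p of the 6 ran from 0.759 to 0.971. By the rule of group means over 2-fold higher that the submitters' design text gives, 1 of the 6 (Flt3) passed, where 0.144% of all probe sets did. With that rule extended here to lower genes, 0 of the 6 were lower, where 0.132% of all probe sets were. Both tumour-challenged arrays exceeded all controls for 2 of the 6 (Flt3 and Csf2rb), against 11.2% of all probe sets, and both lay under all controls for 0 of the 6, against 7.83%. With Flt3 left out, the other 5 differences ran from -0.22 to 0.46 with a median of 0.07.

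**Figure D2:**
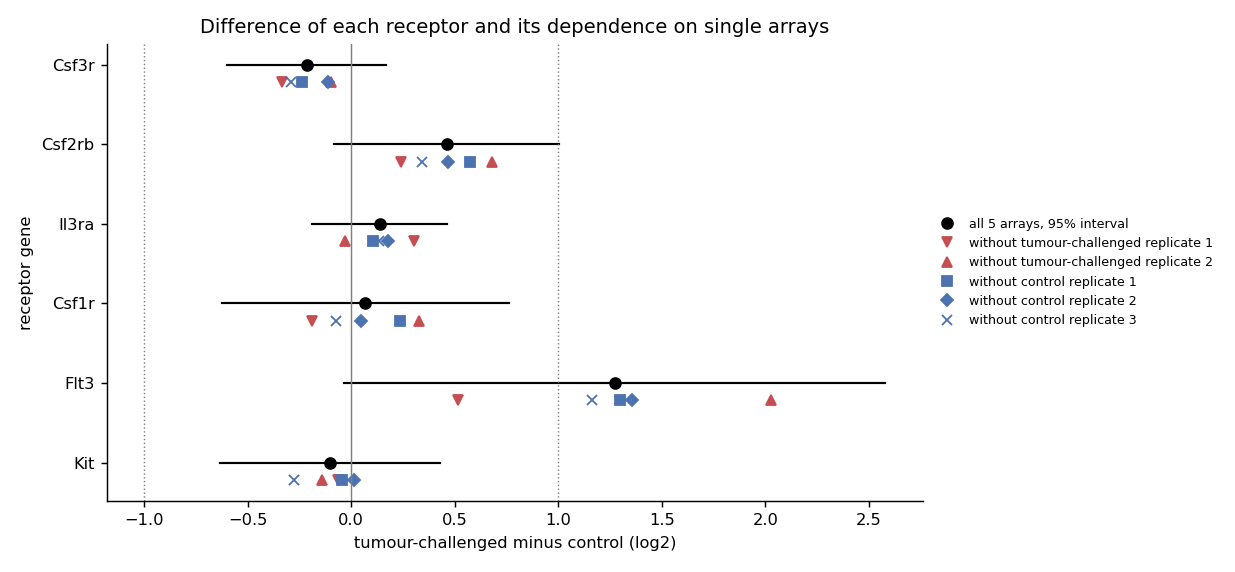
Difference of group means, tumour-challenged minus control, on the log2 scale (horizontal axis) for each receptor (vertical axis). Black points with bars are all 5 arrays with their 95% intervals, coloured symbols are the differences with 1 array left out, and dotted lines mark 2-fold. Every interval spans 0, and Flt3 moves from 1.27 to 0.52 without tumour-challenged replicate 1.

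The order of the arrays within each receptor was set beside that of other probe sets. Of the 5525 probe sets with a mean between 7.40 and 10.47, the span of the 6 receptors, 61.5% were highest in tumour-challenged replicate 1 and 46.3% were lowest in control replicate 3. Their median difference was 0.08, and 66.9% of them had a positive difference. Among the receptors, 2 of 6 (Flt3 and Csf2rb) were highest in tumour-challenged replicate 1 and 4 of 6 (Csf2rb, Csf1r, Flt3 and Kit) were lowest in control replicate 3. After quantile normalization of the arrays the difference of Flt3 was 1.18 and that of Csf2rb 0.38. That of Csf1r was 0.02, against 0.07 without this step. With the arrays centred on their medians instead, the difference of Csf2rb was 0.43 and that of Csf1r 0.04. Whether array-wide shifts that neither step removes remain in these values was not tested.

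Genes with a similar array profile to Flt3 were sought among the other 14806 genes by the root mean square distance between profiles over the 5 arrays, each centred on its own mean. Only Flt3, with a range of 2.25, met the minimum range of 1 set for this search. The closest were Ppbp and Pf4, chemokines of platelets, at distances of 0.19 and 0.20, where the median gene lay at 0.79. Mmp8, Mmgt2, a membrane magnesium transporter gene, and Dpep2, a membrane dipeptidase gene, followed at 0.26 each. The profiles were not scaled, and the median range over all probe sets was 0.38. The median distance of 0.79 therefore largely restates the wide range of Flt3, and is no measure of how unusual these distances are. Ppbp read 10.09 and 8.98 after tumour challenge and 8.62, 8.74 and 8.23 in controls. Pf4 read 8.63 and 7.17 against 6.76, 7.29 and 6.33, so that its groups overlapped. In each of these 5 genes tumour-challenged replicate 1 stood highest, as in Flt3, which follows from choosing them by likeness to its profile. Likeness over 5 arrays is a description of these arrays.

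**Figure D3:**
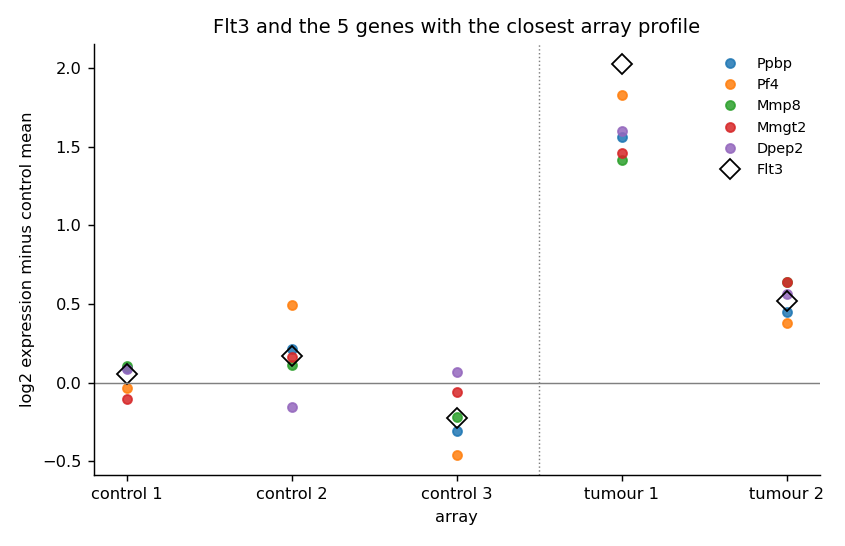
Log2 expression minus the control mean (vertical axis) on each array (horizontal axis) for Flt3 (open diamonds) and the 5 genes with the closest profile (filled points). In tumour-challenged replicate 1 Flt3 is 2.03 above its control mean, against 0.52 in replicate 2.

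The ligands of these receptors are mostly made by other cells, and 6 of the 8 measured ligand genes had a mean below the background level (Csf2, Csf3, Il3, Il5, Il34 and Kitl). None of the 8 passed the test, with 2 positive and 6 negative differences and a median of -0.10. The groups did not overlap for 1 higher (Flt3l) and 2 lower (Csf2 and Il5) of the 8, against 11.2% and 7.83% of all probe sets. Flt3l, the gene of Flt3 ligand, lay above background on all arrays, at 8.21 and 8.14 after tumour challenge and 7.82, 7.88 and 8.10 in controls. Its groups did not overlap, and its log2 difference was 0.24 ± 0.10 (SE), with a limma adjusted p of 0.799. Csf1, the other ligand above background, read 7.49 and 7.18 against 7.41, 7.83 and 7.20, a difference of -0.15 ± 0.23 (SE). Csf2, which encodes GM-CSF, was below background on all 5 arrays, at 5.44 and 5.68 against 6.08, 6.45 and 5.91. Il3 was below it too, at 4.87 and 4.69 against 4.84, 4.87 and 5.65.

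Other receptors of the cytokine family and the class III kinases also gave 0 calls among 8 measured genes (6 positive, 2 negative, median 0.05). Il5ra, the alpha chain that pairs with the common beta chain to bind interleukin 5, read 5.68 and 5.53 after tumour challenge and 5.97, 6.01 and 5.95 in controls, under background on all arrays. Il4ra, the interleukin 4 receptor chain, read 9.89 and 9.70 against 9.65, 9.61 and 9.16, a log2 difference of 0.32 ± 0.18 (SE). Lifr, the leukaemia inhibitory factor receptor, read 9.00 in tumour-challenged replicate 1 and 7.70 in replicate 2, on either side of its controls (7.96 to 8.12). Pdgfra and Pdgfrb, the platelet-derived growth factor receptors of the class III family, had means under the background level.

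Signalling genes downstream of the receptors showed small differences. Of 15 measured genes of proximal signalling 10 were positive and 5 negative (median 0.14, 0 called), and the groups did not overlap for 1 of them, against 11.2% higher and 7.83% lower over all probe sets. That gene was Pik3cd, a catalytic subunit of phosphoinositide 3-kinase, at 0.29 ± 0.19 (SE). Jak2, the kinase bound to the common beta chain, differed by -0.20 ± 0.11 (SE), and Stat5a and Stat5b by -0.03 ± 0.11 and 0.01 ± 0.18 (SE). Of 12 feedback inhibitors 9 were positive and 3 negative (median 0.17, 0 called). Cish, which cytokines induce through STAT5, read 6.97 and 6.62 after tumour challenge and 7.19, 7.16 and 6.91 in controls. Socs3, which restrains G-CSF receptor signalling, read 7.41 in tumour-challenged replicate 1. On the other 4 arrays it was under the background level, between 6.14 and 6.82. Ptpn6, a phosphatase that dampens growth factor signals, differed by 0.23 ± 0.22 (SE). Arrays of the groups were separate for 1 gene, Socs2, another cytokine-induced inhibitor, at -0.20 ± 0.09 (SE).

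Targets of STAT5 and STAT3 split by gene. Of 9 measured, 3 were positive and 6 negative, with a median of -0.02 and 0 called. Bcl2l1, a survival gene, read 7.27 and 7.29 after tumour challenge and 6.90, 7.04 and 6.90 in controls, a log2 difference of 0.33 ± 0.07 (SE), with a limma adjusted p of 0.586. Bcl2, another survival gene, read 8.25 and 8.25 against 8.81, 8.57 and 8.76, a difference of -0.46 ± 0.09 (SE), with a limma adjusted p of 0.557. The groups did not overlap for either gene. Myc differed by -0.40 ± 0.22 (SE) with overlapping groups.

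Of 11 transcription factors of the haematopoietic lineages, 7 differences were positive, 3 negative and 1 was 0 (median 0.01, 0 called). The 0 is that of Gfi1, whose deposited value was 7.18 on all 5 arrays. Such repeated values on 2 or more arrays occurred in 19.8% of all probe sets and in 0 of the 6 receptors. Cebpa, which drives granulocyte commitment and the Csf3r gene, read 8.28 and 8.36 after tumour challenge and 8.08, 7.86 and 7.81 in controls, a log2 difference of 0.40 ± 0.10 (SE), with a limma adjusted p of 0.662. Cebpe, of later granulocyte differentiation, differed by 0.29 ± 0.08 (SE), with a limma adjusted p of 0.691. The groups did not overlap for either gene, while Irf8, of monocytes and dendritic cells, overlapped at 0.27 ± 0.22 (SE). Spi1, which encodes PU.1, a regulator of several of these receptor genes, differed by -0.01 ± 0.15 (SE). Over the 6 lists together, 63 of 72 listed genes were measured, 37 were positive, 25 negative and 1 at 0. None passed the test or a 2-fold difference, and the groups did not overlap for 7 higher and 6 lower of the 63, near the shares over all probe sets (11.2% and 7.83%).

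**Figure D4:**
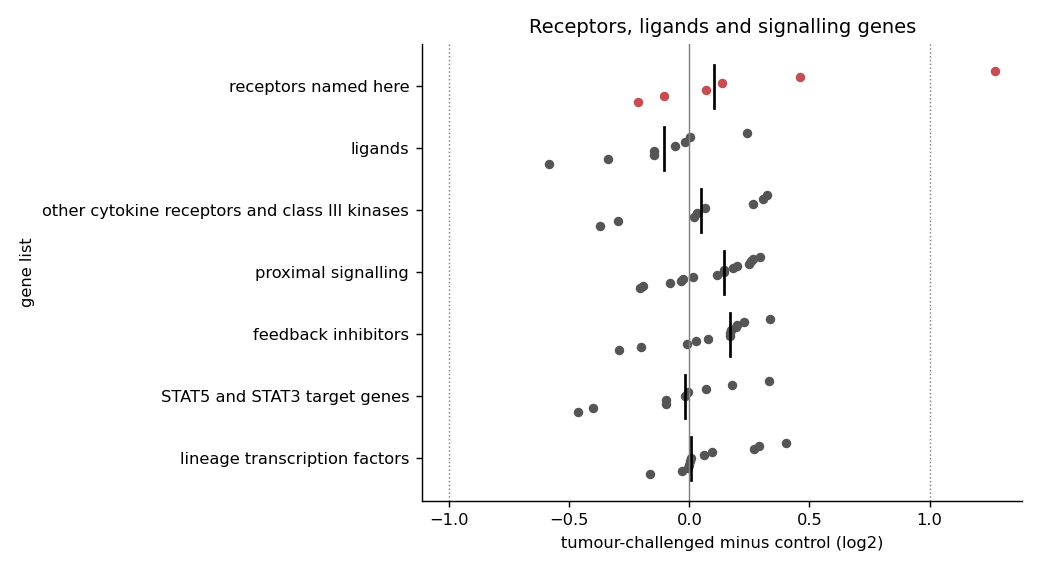
Difference of group means, tumour-challenged minus control, on the log2 scale (horizontal axis) for each gene of the receptor set and of 6 lists of ligands, other receptors and signalling genes (vertical axis). Each point is 1 gene and each vertical bar a list's median. Flt3, at 1.27, is the one point beyond the dotted lines that mark 2-fold.

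Markers of cells known to carry these receptors were read on the same arrays. Dendritic cell markers, which Flt3 would accompany in dendritic cells, had 5 positive and 6 negative differences among 11 measured, with a median of -0.04. Their mean level was 7.76 and 7.64 in tumour-challenged replicates 1 and 2, and between 7.75 and 7.83 in controls. Clec9a, a lectin of cross-presenting dendritic cells, read 7.44 and 6.69 against 8.11, 8.17 and 8.44, and Cd209a read 7.84 and 7.15 against 8.06 to 8.13. Naaa, an acid amidase also found in dendritic cells, read 10.22 and 9.97 against 9.63, 9.30 and 9.11, and Cadm1, an adhesion molecule of cross-presenting dendritic cells, 8.35 and 8.41 against 7.80, 8.15 and 8.07. The groups did not overlap for 2 higher (Naaa and Cadm1) and 4 lower of the 11 genes, against 11.2% higher and 7.83% lower over all probe sets. Zbtb46, a transcription factor of conventional dendritic cells, was under background on all 5 arrays.

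Progenitor markers had 1 positive and 7 negative differences among 8 measured (median -0.07), with a mean level of 7.13 to 7.21 after tumour challenge and 7.19 to 7.34 in controls. Cd34, a surface protein of progenitors, read 7.12 and 6.97 against 7.56, 7.58 and 7.14. Of the lymphoid progenitor markers, Rag2 and Dntt were under background on all 5 arrays, and Ebf1 read 7.12 and 7.11 against 7.51 to 7.97. The B-cell markers, of a later stage, had 7 negative differences among 7, a median of -0.60 and a mean level of 7.13 to 7.14 against 7.61 to 7.88. Mast cell, basophil and eosinophil markers, cells that carry Kit, Il3ra and Csf2rb, had 5 positive and 6 negative differences among 11 measured (median -0.01, mean level 6.81 to 6.83 against 6.76 to 6.84), and 7 of the 11 had a mean not above background, the mast cell genes Cpa3, Ms4a2 and Cma1 included. Within that list Mcpt8, a basophil protease, read 7.86 and 7.47 against 6.65 to 6.73, and Ccr3, the eotaxin receptor, 6.24 and 7.20 against 8.06 to 8.28. Prg2, an eosinophil granule protein gene, read 7.17 and 6.99 against 6.02 to 6.53, without overlap in the other direction. The groups did not overlap for 2 lower of the 8 progenitor, 1 lower of the 3 lymphoid progenitor and 5 lower of the 7 B-cell markers. In the mast cell, basophil and eosinophil list they did not overlap for 2 higher and 2 lower of the 11. The shares over all probe sets were 11.2% higher and 7.83% lower.

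Monocyte markers, which accompany Csf1r, had 6 positive and 3 negative differences among 9 measured (median 0.08), with a mean level of 11.21 and 10.69 in tumour-challenged replicates 1 and 2 against 10.33 to 10.77 in controls. The differences of this list with the largest size were those of Vcan (2.23), the matrix proteoglycan versican, F13a1 (0.79), of coagulation, and the fibronectin gene Fn1 (0.65). The rest of the list ran from -0.18 (Adgre4) to 0.23 (Treml4), with Ccr2 at 0.04 and Cx3cr1 at 0.08. The groups did not overlap for 4 higher and 0 lower of the 9 genes, against 11.2% and 7.83% of all probe sets. Alveolar macrophage markers, of another cell that carries Csf1r, had 3 positive and 7 negative differences among 10 measured (median -0.12). The groups did not overlap for 5 lower genes of the 10, against 7.83% lower over all probe sets. Their mean level was 8.08 on both tumour-challenged arrays against 8.24 to 8.32. In that list Lpl, lipoprotein lipase, differed by -0.83 and the mannose receptor Mrc1 by -0.48. Neutrophil markers, which accompany Csf3r, had 7 positive and 4 negative among 11 (median 0.52), with a mean level of 10.50 to 10.61 against 9.70 to 9.86. The groups did not overlap for 7 higher and 1 lower of these 11, against 11.2% and 7.83% of all probe sets. In this list 5 granule genes were past 2-fold, namely Ngp (2.12), Ltf (1.83), Lcn2 (1.67), Camp (1.56) and Mmp8 (1.03), and the other 6 differences ran from -0.30 to 0.52, with Cxcr2, S100a8, S100a9 and Il1r2 below 0. Lung epithelial and erythroid markers had mean levels of 8.83 on both tumour-challenged arrays against 8.19 to 8.84, and of 6.89 to 7.02 against 6.09 to 6.49. Of these, 2 of 7 lung epithelial and 3 of 4 erythroid markers had a mean not above background. The groups did not overlap for 3 higher of the 7 lung epithelial and 3 higher of the 4 erythroid markers, against 11.2% higher over all probe sets. None of the genes of these marker lists passed the test, and the part of any of these cells in the values of Flt3, Csf2rb or Csf3r was not tested.

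**Figure D5:**
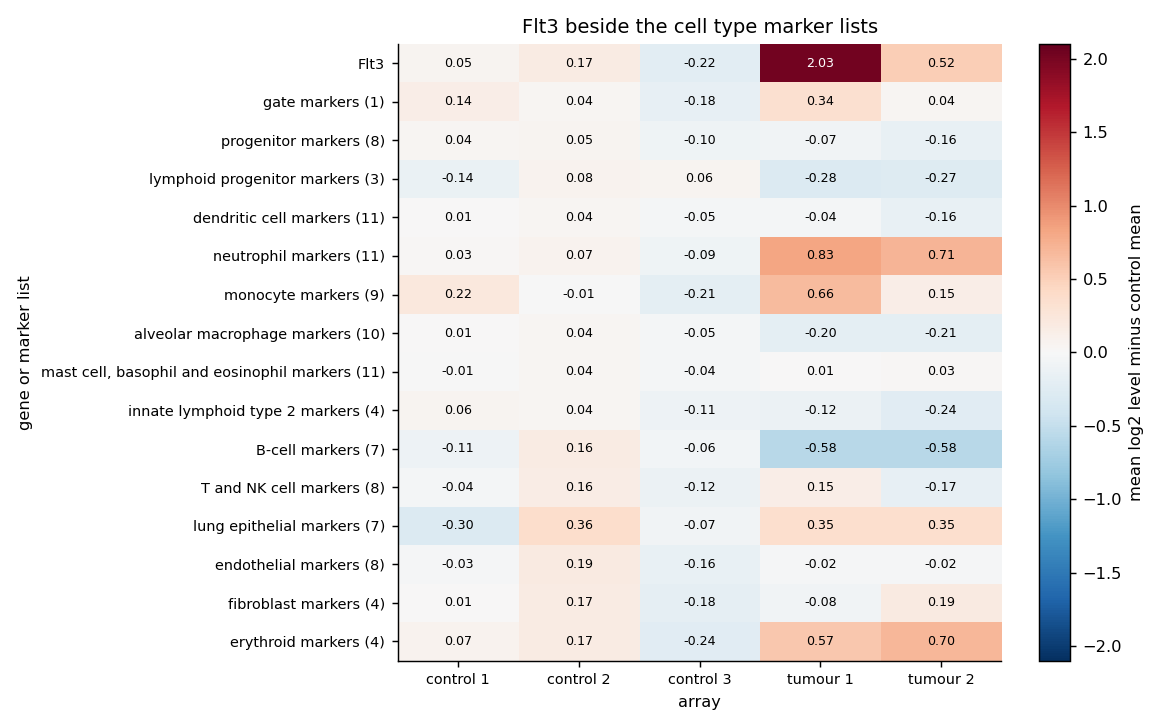
Mean log2 level of each marker list (vertical axis, with the number of measured genes) on each array (horizontal axis), less its mean over the 3 control arrays, with Flt3 in the top line. Red is above and blue below the control mean, and each cell prints its value. Flt3 is at 2.03 in tumour-challenged replicate 1. On that array neutrophil markers are at 0.83, monocyte markers at 0.66, erythroid markers at 0.57 and lung epithelial markers at 0.35. Dendritic cell markers are at -0.04 and B-cell markers at -0.58. A list mean can join genes of opposite sign.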

How the data were processed

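The authors deposited log2 expression values of 16661 probe sets on 5 arrays, and the submitters' processing notes name RMA as the method. Its version and filters are not stated there, nor is the role of mm8, a mouse genome build that the notes list, so no coordinates are printed. The platform's annotation gives 1 symbol for 14939 probe sets and several for 989, and 733 are unnamed here. Symbols were updated through the gene number, which matched for 14884, and genes with several probe sets were read from the one with the highest mean.

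The test was limma 3.58.1 (R 4.3.3) on all 16661 probe sets, comparing 2 tumour-challenged with 3 control arrays as tumour-challenged minus control. It was two-sided, p-values were adjusted by Benjamini-Hochberg over the whole table, and the threshold was 0.05. The fit had 3 residual and 1.36 prior degrees of freedom. The number of arrays limits the precision. The receptors and the 21 gene lists (169 of 201 listed genes measured) were chosen with earlier results of these data known, so no p was adjusted over a list. Named genes are the receptors, genes among the 3 largest differences of a list, ligands and partners of the receptors, and the 5 genes closest to Flt3. Genes named outside this rule (Cxcr2, Il1r2, S100a8, S100a9, Camp, Ccr2, Cx3cr1, Treml4, Adgre4, Socs2, Gfi1, Cadm1, Jak2, Stat5a, Stat5b, Pdgfra, Pdgfrb, Spi1, Zbtb46, Cpa3, Ms4a2 and Cma1) were named after their values were seen. Alternatives were other normalizations, variance models, a filter on dim probe sets, a replicate block and leaving out each array.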

Additional observations from a re-analysis of the deposited data

How the results depend on the processing

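Each of the 6 receptor differences was recomputed under 10 alternatives, 60 values in all: none passed the test (lowest adjusted p 0.322) and 5 turned in sign. The filter on dim probe sets and the other variance model leave the differences as they are, so 48 of the 60 could move. The replicate block gave the same differences as leaving out control replicate 3. The number of receptors with an unadjusted p under 0.05 was 0 as reported and ran from 0 to 2 over the alternatives (Flt3 in 5 of the 10, Csf2rb in 3, Kit in 2 and Il3ra in 1). The 5 fell in 3 receptors. Csf1r was at -0.076 with the replicate block, and ran from -0.191 to 0.328 with 1 array left out. Il3ra ran from -0.028 to 0.303 and Kit from -0.279 to 0.013. The number of receptors past 2-fold was 1 under every alternative except without tumour-challenged replicate 1, where it was 0 (range 0 to 1 over the arrays left out). Flt3 ran from 0.52 to 2.03 with 1 array left out and from 1.16 to 1.27 under the other alternatives. Centring the arrays on their medians gave 1 call by limma over all probe sets, against 0 otherwise, and that call is no receptor. With the 75th percentile the background level was 5.80, and all 6 receptors lay above either level on all 5 arrays.

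The replicate block left 1 residual degree of freedom and gave Flt3 a difference of 1.16 and Csf2rb one of 0.34, with 0 calls. Deviations of same-numbered arrays from their group means correlated at 0.29 and 0.22 across probe sets, over 2 pairs. These pairs are not independent, because the 2 tumour-challenged arrays deviate from their mean by equal and opposite amounts. The labels tie no numbers together, so whether same-numbered samples share more than a number cannot be told. Each receptor had a single probe set, so averaging probe sets gave no other value. Leaving out a tumour-challenged array leaves 1, which is assumed to vary like the controls.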
